A study of Bombyx mori with 12 samples.

Results

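The small RNA bound to the PIWI protein Siwi after knockdown of Maelstrom (Mael) was set directly against that after knockdown of Ago3, transposon by transposon, to see which elements had less Siwi-bound small RNA without Ago3 and which had less without Mael. The members were all transposon entries of the silkworm, Bombyx mori, with a mean of at least 1 RPM (an entry's reads scaled to a total common to all libraries) over the 6 small RNA libraries, which were 1004 of the 1716 entries listed. Of the rest, 461 lay below that mean and 251 were listed at 0 in all 6 libraries. BmTE_RM1-517 entered at a mean of 1.00 RPM and BmTE_RM6-2035 stayed out at 0.997 RPM. Among the tested entries were 176 elements with names of their own and 828 computed repeat families (BmTE entries), and 613 carried no class.

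The cells were BmN4, a line cultured at 26 °C that derives from silkworm ovary. For Mael knockdown, Ago3 knockdown and the control, siRNA against Mael, Ago3 or luciferase (500 pmol a nucleofection) was given repeatedly over a culture of 10 days, and each group had 2 libraries. RNA of 22 to 35 nt was taken from anti-Flag precipitates of Siwi, so the small RNA is that of a tagged Siwi expressed from a plasmid rather than of all Siwi in the cell, and it was read for 51 nt on a MiSeq. Poly-A RNA of Mael knockdown, Siwi knockdown and control cells, also 2 libraries a group, makes up the rest of the series of 12 libraries. The sample titles call these libraries total RNA. All groups share the cell line, the nucleofection and the serum-containing medium. Separate cultures are not stated for the libraries of a group, so every p-value measures only how far these libraries spread, which may be technical.

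PIWI-interacting RNAs (piRNAs) guide PIWI proteins to transposon transcripts, which the proteins cut. In the silkworm, Siwi and Ago3 take part in the ping-pong cycle, in which the transcript cut by one becomes the source of the piRNA loaded into the other, so that Ago3 feeds piRNA production for Siwi. Maelstrom is a conserved protein of the germline piRNA pathway, and the title of the series places it in making the complex of Siwi with its piRNA.

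The libraries held 3.02 and 1.84 M reads after Mael knockdown, 2.61 and 2.18 M after Ago3 knockdown and 4.81 and 1.76 M in control cells, so that 3 reads stood for 0.624 to 1.70 RPM. A read without a molecular identifier is not an independent molecule, and such limits cover counting error only. RPM is relative to each library's own total, so the amount of Siwi-bound RNA per cell is not measured, nor can fewer cells holding a small RNA be told apart from less of it in each cell. RPM is not divided by length, so an abundant entry is one with many reads, not one with much small RNA per base. Entries that resemble each other may share reads. Levels of Mael, Ago3 and Siwi themselves were not analysed here, so the strength of each knockdown is not known.

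Mael and Ago3 knockdown differed in how much Siwi-bound small RNA they left on many transposons. Between them, 526 of 1004 entries differed (52.4%; limma on log2(RPM + 1), Benjamini-Hochberg adjusted p under 0.05). Of these, 208 were higher after Mael knockdown (20.7%) and 318 were lower (31.7%). On the log2(RPM + 1) scale 34 called entries were at least 4-fold higher after Mael knockdown and 12 at least 4-fold lower, and 9 were at least 8-fold higher and 0 lower. The pseudocount shrinks the differences of low entries, and by plain ratios of mean RPM these counts were 35 higher and 32 lower at 4-fold and 9 higher and 6 lower at 8-fold, the 6 with at most 2 reads in any Mael library. Between these knockdowns the median difference over all entries was -0.34 on the log2 scale. Trimmed-mean scaling, which centres the bulk of entries, raised that median by 0.22 and turned the split round to 263 higher and 201 lower. Calls made under the deposited scaling, trimmed-mean scaling and scaling to the transposon total alike numbered 130 higher and 201 lower. The Mael libraries lay above both Ago3 libraries in 260 entries and below both in 526.

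**Figure D1:**
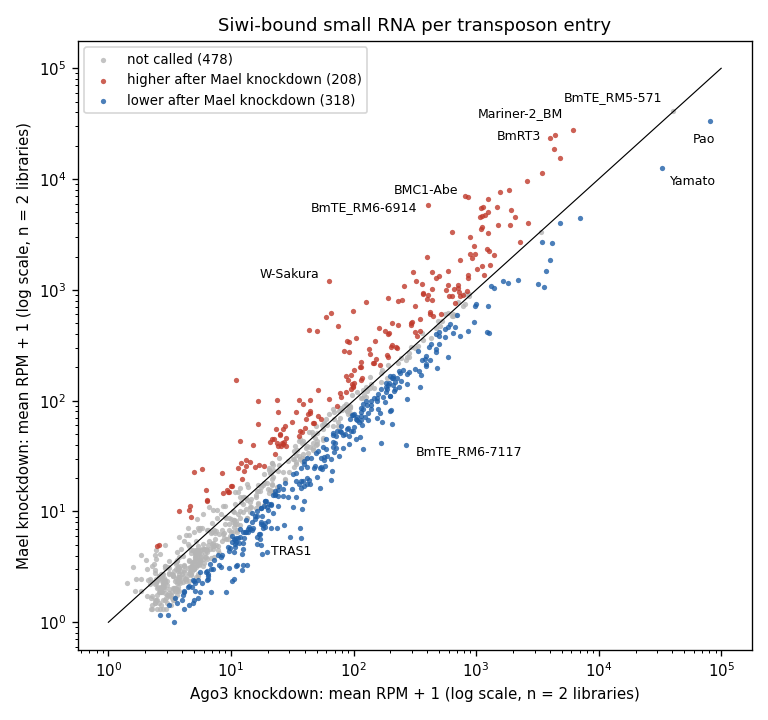
Mean Siwi-bound small RNA of each of the 1004 tested entries after Mael knockdown (vertical axis) and after Ago3 knockdown (horizontal axis), in RPM + 1 on log scales, with the line of equal levels. The 208 entries called higher after Mael knockdown lie above the line, led by W-Sakura and BmTE_RM6-6914, and the 318 called lower lie below it, with Pao and Yamato at the abundant end.

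Higher small RNA after Mael than after Ago3 knockdown was commonest among entries rich in small RNA in control cells. Control libraries played no part in the log2 difference between the knockdowns, so entries were divided by control mean into 4 bins of 251. The calls are not free of them, since the control libraries entered the shared estimate of spread and the filter on level. In the lowest bin (0.104 to 5.18 RPM) 1 entry was higher and 53 lower after Mael knockdown, with a median log2 difference of -0.59. The second bin (5.26 to 25.5 RPM) gave 20 higher and 91 lower with a median of -0.56, and the third (25.6 to 165 RPM) 65 and 91 with a median of -0.15. In the highest bin (168 to 51472 RPM) 122 were higher and 83 lower, and the median was 0.16. With trimmed-mean scaling the 4 bins gave 4 higher and 34 lower, 25 and 62, 91 and 54, and 143 and 51, so the order of the bins was the same. Of the 50 entries with most small RNA in control cells, 36 were higher and 12 lower (median 1.18), and of the top 100, 66 and 22 (median 0.59). In the lowest bin 43 entries had a control mean under 1 RPM, so that they were tested only through the level in a knockdown, and in all bins 67 tested entries had a Mael mean and 7 an Ago3 mean under 1 RPM. Without those 43 the lowest bin gave 1 higher and 48 lower of 208, with a median of -0.58. Low entries have fewer reads and the pseudocount draws their differences toward 0, so their counts of calls and sizes are the least certain.

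**Figure D2:**
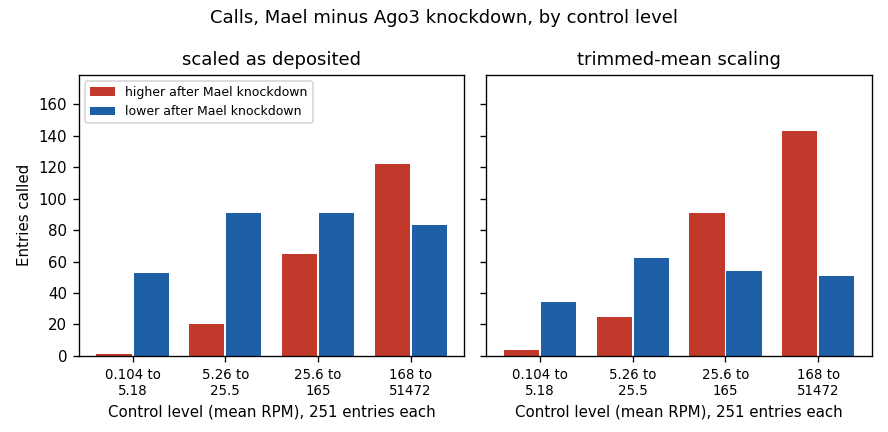
Number of entries called higher or lower after Mael than after Ago3 knockdown (vertical axis) in 4 bins of 251 entries by mean control level in RPM (horizontal axis), with the deposited scaling (left) and trimmed-mean scaling (right). Calls of higher small RNA after Mael knockdown grow with control level under both scalings, 1, 20, 65 and 122 as deposited.

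The control libraries show on which side of the control level each knockdown lay. These contrasts share libraries with the direct one, so their counts describe the same data again. The counts in this paragraph are with the deposited scaling. Trimmed-mean scaling divided the Mael libraries by 0.839 and 0.803, the Ago3 libraries by 0.992 and 0.984 and the controls by 1.23 and 1.24. It thus raised both knockdowns against control, Mael knockdown the more. Counts below and above control, and the side of control on which a single entry lay, therefore depend on the scaling. Statements below on named entries against control are as deposited unless another scaling is named. After Ago3 knockdown 408 of the 1004 entries were lower than in control (40.6%) and 169 higher (16.8%), 57.5% in all, and after Mael knockdown 446 were lower (44.4%) and 118 higher (11.8%), 56.2% in all. Among the 208 entries higher after Mael than after Ago3 knockdown, 185 were below control after Ago3 knockdown, 22 did not differ past the threshold and 1 was above. In the same 208, Mael knockdown was above control in 82, below it in 63 and not called in 63. Thus 63 entries were below control after both knockdowns but further below after Ago3 knockdown, and 63 others were below control after Ago3 and above it after Mael knockdown. Among the 318 entries lower after Mael knockdown, Mael libraries were below control in 190, above it in 20 and not called in 108, while Ago3 libraries were above control in 125, below in 67 and not called in 126. So in 78 entries the only called change from control was a higher level after Ago3 knockdown, and in 96 it was a lower level after Mael knockdown.

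By the rule for Ago3, an entry had to be lower after Ago3 knockdown than after Mael knockdown and than in control. It held for 185 entries (18.4%; 190, 18.9%, with trimmed-mean scaling). The matching rule for Mael, lower after Mael than after Ago3 knockdown and than in control, held for 190 entries (18.9%) but for 74 (7.37%) with trimmed-mean scaling. The count for Ago3 thus hardly moved between these scalings, while that for Mael fell by more than 2-fold. Scaled to the transposon total, the counts were 112 for Ago3 and 347 for Mael. Both counts used the limma calls above, and leaving out any 1 library gave 160 to 186 entries for Ago3 and 158 to 188 for Mael.

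Each set of called entries held more of the library after one knockdown than after the other. The 208 higher entries, chosen on the same libraries, held 33.3% ± 0.624 of the library after Mael knockdown, 10.4% ± 0.103 after Ago3 knockdown and 21.6% ± 0.621 in control cells (SD, n = 2 each). The 318 lower entries held 9.37% ± 0.123, 19.5% ± 0.668 and 15.1% ± 0.218 of the same libraries. All listed transposons together held 49.4% and 49.2% of the 2 libraries after Mael knockdown, 36.1% and 37.1% after Ago3 knockdown, and 42.4% and 43.7% in control cells. The Mael libraries lay above both Ago3 libraries by 12.7 percentage points on average, with an exact permutation p of 0.33 (two-sided), the smallest that 2 libraries against 2 can give. Without the 10 most abundant entries the difference was 10.3 points.

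The classes contributed unequally to that share. LINE retrotransposons, which copy themselves through an RNA without long terminal repeats, held 12.1% of the library after Mael knockdown, 4.08% after Ago3 knockdown and 9.34% in control cells. DNA transposons, which mostly move by excision, held 8.83%, 4.39% and 5.75%. LTR retrotransposons ran the other way, with 15.4% after Mael knockdown, 18.3% after Ago3 knockdown and 17.0% in control cells. Of the LTR groups with at least 5 tested entries, only Pao ran that way, with 8.90%, 14.1% and 11.3%. That direction rested on the entries Pao and Yamato, whose levels are given below. The other entries of the Pao superfamily, and the other LTR entries, together held more after Mael than after Ago3 knockdown. Gypsy held 5.19% after Mael and 3.34% after Ago3 knockdown, Copia 0.752% and 0.491%, and LTR entries without a superfamily 0.534% and 0.442%. Unclassified entries held 12.2%, 9.23% and 10.3%, and SINEs, short elements that borrow the machinery of LINEs, held 0.448%, 0.432% and 0.491%. Counts of LINE and DNA entries were more even than these shares. Of 172 LINE entries 46 (26.7%) were higher after Mael knockdown and 43 (25%) lower, beside 20.7% and 31.7% of all entries. Of 71 DNA entries 27 (38%) were higher and 23 (32.4%) lower, and of 116 LTR entries 34 (29.3%) and 49 (42.2%). Trimmed-mean scaling gave 57 and 28 for LINE, 30 and 16 for DNA and 44 and 28 for LTR entries, beside 263 and 201 of all. Scaled to the transposon total, they had 35 and 78, 17 and 37, and 18 and 74, beside 130 and 544 of all. The balance within each of these classes thus turned with the scaling.

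**Figure D3:**
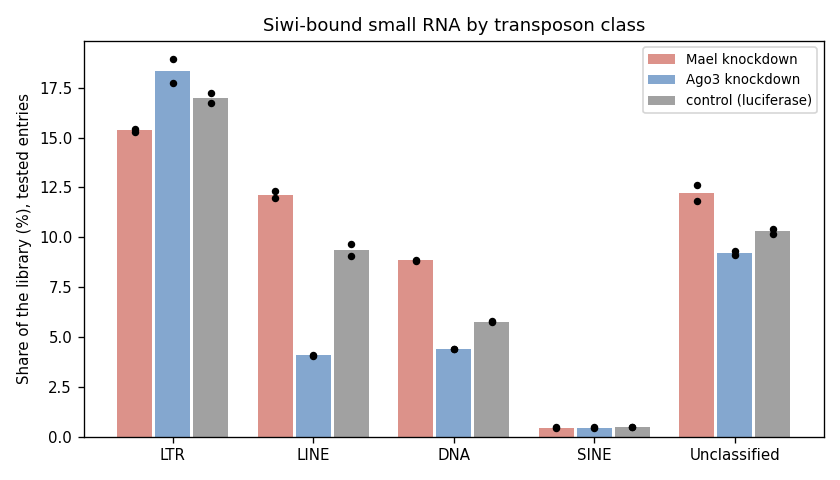
Share of each small RNA library (vertical axis, %) that fell on tested entries of 5 transposon classes (horizontal axis) after Mael knockdown, after Ago3 knockdown and in control cells. Bars are means of 2 libraries and dots the libraries. LINE entries hold 12.1% after Mael knockdown and 4.08% after Ago3 knockdown, and LTR entries 15.4% and 18.3%. The direction of the LTR bars rests on the entries Pao and Yamato.

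Between superfamilies the medians ran from 0.95 for Jockey to -0.85 for Helitron, beside -0.34 over all entries. Of all entries 20.7% were called higher and 31.7% lower, and some groups, such as TcMar-m44 (20% and 40%), lay near those shares. Jockey LINEs (11 higher and 2 lower of 19) and the cut-and-paste mariners (TcMar-Mariner, 10 and 0 of 15, median 0.56) stood at the upper end with TcMar-Tc1 (4 and 0 of 5, median 0.69) and the CR1-L2 LINEs (8 and 3 of 17, median 0.41). At the lower end were the rolling-circle Helitrons (2 and 6 of 9), the TcMar-m44 DNA transposons (1 and 2 of 5, median -0.59), the I LINEs (2 and 8 of 13, median -0.65), the Harbinger DNA transposons (2 and 5 of 8, median -0.55), SBTE SINEs (1 and 8 of 9, median -0.55) and Sola DNA transposons (1 and 5 of 9, median -0.52). Trimmed-mean scaling left the signs of these medians alone, at 1.22 for Jockey, 0.83 for TcMar-Mariner, -0.60 for Helitron, -0.43 for TcMar-m44, -0.45 for I and -0.29 for SBTE. Gypsy (12 higher and 24 lower of 54, median -0.30) and Pao (13 and 11 of 32, median -0.10) were mixed, and their medians were -0.04 and 0.15 with trimmed-mean scaling, where Gypsy had 17 higher and 15 lower and Pao 14 and 5. No list was tested as a set, so nothing here is called particular to a superfamily.

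**Figure D4:**
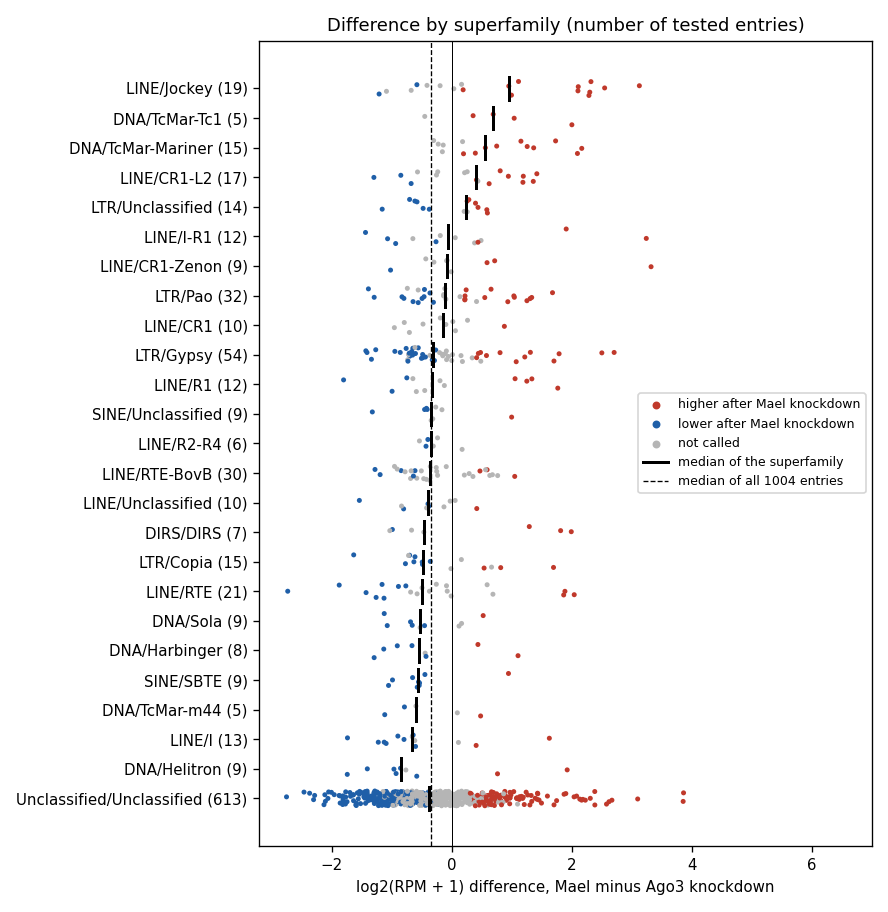
Log2(RPM + 1) difference, Mael minus Ago3 knockdown (horizontal axis), of each tested entry in every superfamily with at least 5 tested entries and in the unclassified group (rows, ordered by median). Jockey, TcMar-Mariner and TcMar-Tc1 have medians right of 0 and Helitron, I and SBTE left of the median of all entries at -0.34.

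Among LINEs, the Jockey groups held abundant entries with large differences. BMC1-Abe, of the Jockey-BMC1 group, had 6767 and 7025 RPM after Mael knockdown, against 833 and 882 RPM after Ago3 knockdown and 1971 and 2112 RPM in control cells. Its level was thus 8.03-fold higher after Mael than after Ago3 knockdown (log2 difference 3.01 ± 0.07, adjusted p = 6.33e-31), with the control in between. BmTE_RM5-1065, a Jockey entry with nearly the same levels (6837 and 7246 RPM after Mael knockdown), and Supermite-BMC1 of the same group (log2 difference 3.24 ± 0.11, adjusted p = 2.66e-26), followed it and may share its reads. The most abundant Jockey entry, BmTE_RM6-18, had 23378 and 23947 RPM after Mael knockdown, against 4034 and 4046 RPM after Ago3 knockdown and 14866 and 16580.0 RPM in control cells. Here Mael knockdown was also above control (log2 difference from control 0.59 ± 0.07, adjusted p = 3.42e-09) and Ago3 knockdown far below it (log2 difference from control -1.96 ± 0.07, adjusted p = 2.15e-24). BmTE_RM3-31 showed the same order with 18347 and 19247 RPM after Mael knockdown, against 4249 and 4457 RPM after Ago3 knockdown and 12455 and 13761 RPM in control cells (log2 difference 2.11 ± 0.07, adjusted p = 4.12e-26). Jockey entries together held 7.73% of the library after Mael knockdown, 1.57% after Ago3 knockdown and 5.13% in control cells. A pair of entries whose names differ only in case were also higher: L1BM averaged 5441 RPM after Mael knockdown, against 1088 RPM after Ago3 knockdown and 3556 RPM in control cells (log2 difference 2.32 ± 0.08, adjusted p = 1.37e-25), and L1Bm averaged 3511 RPM after Mael knockdown, against 1092 RPM after Ago3 knockdown and 3226 RPM in control cells (log2 difference 1.68 ± 0.07, adjusted p = 1.11e-22).

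The elements that insert into ribosomal DNA were higher after Mael than after Ago3 knockdown. R1Bm, which inserts into the 28S rRNA genes, had 1828 and 1873 RPM after Mael knockdown, against 722 and 742 RPM after Ago3 knockdown and 2387 and 2347 RPM in control cells. As deposited, it was below control after both knockdowns, less so after Mael (log2 difference from control -0.36 ± 0.08, adjusted p = 9.82e-05) than after Ago3 knockdown (log2 difference from control -1.69 ± 0.08, adjusted p = 7.52e-22). The knockdowns differed from each other (log2 difference 1.34 ± 0.08, adjusted p = 5.45e-19). R2Bm, which inserts nearby in the same genes, had 2504 and 1964 RPM after Mael knockdown, against 1467 and 1093 RPM after Ago3 knockdown and 2141 and 2220.0 RPM in control cells, with its Mael libraries unequal but both above the Ago3 libraries (log2 difference 0.81 ± 0.10, adjusted p = 2.67e-09). R1-3_BM, an R1-clade entry, averaged 3019 RPM after Mael knockdown, against 885 RPM after Ago3 knockdown and 2076 RPM in control cells (log2 difference 1.77 ± 0.08, adjusted p = 1.52e-22).

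The telomeric elements TRAS and SART, which insert into the telomere repeats, belong to the same R1 clade. Of 10 listed, 5 were tested, 0 were higher and 2 lower after Mael knockdown (with trimmed-mean scaling also 0 and 2, with the transposon total 0 and 5), beside 31.7% lower among all entries. TRAS1 was low, with 3.64 and 4.34 RPM after Mael knockdown, against 13.8 and 19.3 RPM after Ago3 knockdown and 6.66 and 3.97 RPM in control cells (log2 difference -1.80 ± 0.34, adjusted p = 1.69e-05). TRAS3 had 36.0 and 31.5 RPM after Mael knockdown, against 62.0 and 74.4 RPM after Ago3 knockdown and 54.1 and 44.2 RPM in control cells (log2 difference -0.99 ± 0.17, adjusted p = 3.16e-06). SART1 had 740.1 and 745 RPM after Mael knockdown, against 749.6 and 868 RPM after Ago3 knockdown and 1423 and 1418 RPM in control cells. Its knockdowns were close to each other (log2 difference -0.12 ± 0.08, adjusted p = 0.217) while both lay below control (-0.94 ± 0.08 after Mael and -0.81 ± 0.08 after Ago3 knockdown on the log2 scale). SARTBm3 likewise averaged 249 RPM after Mael knockdown, against 284 RPM after Ago3 knockdown and 418 RPM in control cells and was not called (log2 difference -0.19 ± 0.09, adjusted p = 0.0823), though it was with the replicate block (adjusted p = 0.0486). TRASY_partial, with 1.63 to 6.61 RPM in the 4 knockdown libraries, was not called either (log2 difference -0.64 ± 0.37, adjusted p = 0.14), but was called lower without Mael replicate 1 (log2 difference -1.41, adjusted p = 0.00217).

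Other LINEs fell on both sides even within a superfamily. Benkei, a CR1-L2 element, had 2454 and 2481 RPM after Mael knockdown, against 987 and 933 RPM after Ago3 knockdown (log2 difference 1.36 ± 0.08, adjusted p = 3.44e-19), and Takuya of the CR1-Daphne group was also higher (log2 difference 1.11 ± 0.07, adjusted p = 5.38e-17). In the RTE superfamily RTE-1_BM averaged 337 RPM after Mael knockdown, against 90.4 RPM after Ago3 knockdown and 413 RPM in control cells (log2 difference 1.89 ± 0.10, adjusted p = 1.12e-19), whereas RTE-6_BM averaged 69.3 RPM after Mael knockdown, against 156 RPM after Ago3 knockdown and 246 RPM in control cells (log2 difference -1.16 ± 0.12, adjusted p = 3.53e-11). RTE-1_BM was thus chiefly low after Ago3 knockdown, and RTE-6_BM below control after both knockdowns and lowest after Mael knockdown. The same contrast held for I elements, with I-2_BM at 1120.4 RPM after Mael knockdown, against 362 RPM after Ago3 knockdown and 1149.9 RPM in control cells (log2 difference 1.63 ± 0.08, adjusted p = 1.7e-20) and I-1_BM at 126 RPM after Mael knockdown, against 219 RPM after Ago3 knockdown and 252 RPM in control cells (log2 difference -0.79 ± 0.11, adjusted p = 2.66e-08). Pakurin, an unclassified LINE, had 413 and 424 RPM after Mael knockdown, against 1173 and 1261 RPM after Ago3 knockdown and 1230.3 and 1383 RPM in control cells. Its control and Ago3 libraries lay together and its Mael libraries 2.90-fold below the Ago3 libraries (log2 difference -1.54 ± 0.08, adjusted p = 1.19e-19). Taguchi, also an unclassified LINE, was below control after both knockdowns and lower after Mael (log2 difference -0.38 ± 0.09, adjusted p = 0.000441; not called with trimmed-mean scaling), and Kendo, a CR1 entry, averaged 124 RPM after Mael knockdown, against 119 RPM after Ago3 knockdown and 205 RPM in control cells and was not called (log2 difference 0.06 ± 0.12, adjusted p = 0.654). Its direction hung on the scaling, since Kendo was called higher with trimmed-mean scaling (0.33, adjusted p = 0.0201) and lower when scaled to the transposon total (-0.36, adjusted p = 0.00994).

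LTR retrotransposons held the entry with the most reads over the 4 knockdown libraries. Pao, the founding element of the Pao superfamily, had 33511 and 33156 RPM after Mael knockdown, against 78104 and 84959.6 RPM after Ago3 knockdown and 50961 and 51983 RPM in control cells. As deposited, Ago3 knockdown was above control (log2 difference from control 0.66 ± 0.07, adjusted p = 2.23e-10) and Mael knockdown below it (log2 difference from control -0.63 ± 0.07, adjusted p = 9.84e-10). Pao was thus 2.44-fold lower after Mael than after Ago3 knockdown (log2 difference -1.29 ± 0.07, adjusted p = 4.63e-19). Yamato, of the same superfamily, repeated the order with 12518 and 12568 RPM after Mael knockdown, against 31465 and 34120.4 RPM after Ago3 knockdown and 20975 and 23451 RPM in control cells (log2 difference -1.39 ± 0.07, adjusted p = 7.49e-20). YAMATO_BM, an entry of like name, was lower by less, with 2684 RPM after Mael knockdown, against 3446 RPM after Ago3 knockdown and 3364 RPM in control cells (log2 difference -0.36 ± 0.07, adjusted p = 5.94e-05; not called with trimmed-mean scaling).

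Other abundant Pao elements took the opposite direction. Moriya_7603bp had 14971 and 15789 RPM after Mael knockdown, against 4485 and 5122 RPM after Ago3 knockdown and 8502 and 9641 RPM in control cells (log2 difference 1.68 ± 0.08, adjusted p = 3.92e-22). Noguchi had 3752 and 3876 RPM after Mael knockdown, against 1462 and 1562 RPM after Ago3 knockdown and 3061 and 3131 RPM in control cells (log2 difference 1.33 ± 0.07, adjusted p = 2.26e-19), and Kamikaze had 3775 and 3994 RPM after Mael knockdown, against 1849 and 1912 RPM after Ago3 knockdown and 3072 and 3309 RPM in control cells (log2 difference 1.05 ± 0.07, adjusted p = 7.65e-16). In all of them the 2 Ago3 libraries were the lowest and the 2 Mael libraries the highest. A list of 8 named elements drawn up as Pao-type, 3 of which the table files elsewhere, had 4 higher and 3 lower, beside 20.7% and 31.7% of all entries. Its member Judo, an unclassified LTR entry, was close to equal, with 429.9 and 411 RPM after Mael knockdown, against 361 and 328 RPM after Ago3 knockdown (log2 difference 0.29 ± 0.09, adjusted p = 0.00701), and its call was lost without Mael replicate 1 or Ago3 replicate 2 and its sign with the transposon total (-0.14).

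Gypsy elements gave large differences both ways. BmRT3 had 24585 and 25345 RPM after Mael knockdown, against 4366 and 4439 RPM after Ago3 knockdown and 8139 and 8691 RPM in control cells, so that Mael knockdown was highest and Ago3 knockdown lowest (log2 difference 2.50 ± 0.07, adjusted p = 5.75e-29). BmTE_RM1-552 had 636 and 644 RPM after Mael knockdown, against 101 and 93.2 RPM after Ago3 knockdown (log2 difference 2.71 ± 0.10, adjusted p = 1.21e-25). BmRT2 had 1462 and 1483 RPM after Mael knockdown, against 3506 and 3938 RPM after Ago3 knockdown and 3641 and 3779 RPM in control cells. Ago3 and control libraries of BmRT2 overlapped and Mael libraries lay 2.52-fold below the Ago3 libraries (log2 difference -1.33 ± 0.07, adjusted p = 4.38e-19). Of the Kabuki group, Kabuki had 3995 and 3960.0 RPM after Mael knockdown, against 2546 and 2775 RPM after Ago3 knockdown and 3832 and 3914 RPM in control cells (log2 difference 0.58 ± 0.07, adjusted p = 6.8e-09), a call lost with the transposon total (0.15, adjusted p = 0.0502). Suzuka_Kabuki_type was higher (log2 difference 1.08 ± 0.09, adjusted p = 1.25e-13) and Rikishi_Kabuki_type lower after Mael knockdown (log2 difference -0.70 ± 0.12, adjusted p = 4.04e-06). Among Copia elements BmRT15 averaged 3657 RPM after Mael knockdown, against 1126 RPM after Ago3 knockdown and 1281 RPM in control cells (log2 difference 1.70 ± 0.07, adjusted p = 1.5e-22), its Mael level far above control, and yokozuna averaged 323 RPM after Mael knockdown, against 499.7 RPM after Ago3 knockdown and 441 RPM in control cells (log2 difference -0.63 ± 0.09, adjusted p = 1.8e-07).

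For 7 LTR elements the table lists the internal part and the terminal repeat apart, and both were tested. LTR-2_BM had its internal part higher after Mael knockdown (log2 difference 0.60 ± 0.09, adjusted p = 2.83e-07) and its terminal repeat lower (log2 difference -0.58 ± 0.14, adjusted p = 0.000484). The call for the internal part was lost with the transposon total (0.17, adjusted p = 0.0969) and that for the terminal repeat with trimmed-mean scaling. In the other 6 at most 1 of the parts was called. Gypsy-6_BM, for example, was lower in its internal part (log2 difference -0.86, adjusted p = 2.45e-05) with a terminal repeat at 0.18 (adjusted p = 0.652).

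Among DNA superfamilies with at least 5 tested entries, only the mariners and TcMar-Tc1 had 0 entries called lower as deposited. Of 15 mariners tested, 10 were higher and 0 lower after Mael knockdown (11 and 0 with trimmed-mean scaling, 7 and 4 with the transposon total). Over all entries 20.7% were higher and 31.7% lower as deposited. Together the mariners held 5.21% of the library after Mael knockdown, 1.55% after Ago3 knockdown and 2.40% in control cells. Mariner-2_BM had 26829 and 28699.9 RPM after Mael knockdown, against 6191 and 6151 RPM after Ago3 knockdown and 10291 and 10846 RPM in control cells (log2 difference 2.17 ± 0.07, adjusted p = 9.81e-27). Mariner-4_BM had 11570.0 and 11302 RPM after Mael knockdown, against 3299.7 and 3586 RPM after Ago3 knockdown and 4719 and 4809.7 RPM in control cells (log2 difference 1.73 ± 0.07, adjusted p = 1.59e-23). Both were highest after Mael knockdown and lowest after Ago3 knockdown. Bmmar6 had 4535 and 4590.1 RPM after Mael knockdown, against 1061 and 1071 RPM after Ago3 knockdown and 1043 and 1065 RPM in control cells. Its Ago3 and control libraries overlapped (log2 difference from control 0.02 ± 0.07, adjusted p = 0.87), while its Mael libraries stood above both (log2 difference 2.10 ± 0.07, adjusted p = 1.15e-25 against Ago3 knockdown). MAR1_BM averaged 3232 RPM after Mael knockdown, against 1252 RPM after Ago3 knockdown and 1735 RPM in control cells (log2 difference 1.37 ± 0.07, adjusted p = 1.47e-19). Mariner-7_BM instead was below control after both knockdowns and lower after Ago3, with 897 RPM after Mael knockdown, against 402 RPM after Ago3 knockdown and 1038 RPM in control cells (log2 difference 1.16 ± 0.08, adjusted p = 1.13e-15). Bmhopper, a DNA transposon that the table gives no superfamily, was also higher after Mael knockdown (log2 difference 2.00 ± 0.07, adjusted p = 2.75e-25).

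Helitrons went both ways. Helitron-1_BM had 5584 and 5611 RPM after Mael knockdown, against 1426 and 1520.1 RPM after Ago3 knockdown and 2283 and 2282 RPM in control cells (log2 difference 1.93 ± 0.07, adjusted p = 7.25e-25), again with Mael highest and Ago3 lowest. The Helitron-N1 entries, non-autonomous copies by their names, were lower. Helitron-N1_BM had 106 and 97.1 RPM after Mael knockdown, against 283 and 259 RPM after Ago3 knockdown and 164 and 189 RPM in control cells (log2 difference -1.40 ± 0.11, adjusted p = 3.73e-14). Helitron-N1C_BM had 59.5 and 62.4 RPM after Mael knockdown, against 211 and 201 RPM after Ago3 knockdown and 89.3 and 60.7 RPM in control cells (log2 difference -1.74 ± 0.14, adjusted p = 5.98e-14), so its Ago3 libraries stood apart from the rest. Helitron-N1B_BM, at 16.8 to 36.8 RPM in the 4 knockdown libraries, was lower too (log2 difference -0.85 ± 0.22, adjusted p = 0.00125).

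Of the other DNA transposons, BmpiggyBac-MER85, a relative of the moth element piggyBac, had 4495 and 4408 RPM after Mael knockdown, against 6871 and 7294 RPM after Ago3 knockdown and 6271 and 6594 RPM in control cells (log2 difference -0.67 ± 0.07, adjusted p = 1.27e-10). Its Ago3 level was not called different from control (log2 difference from control 0.14 ± 0.07, adjusted p = 0.0932) and its Mael level was lower than control as deposited. With trimmed-mean scaling its Mael level was not called lower than control. BmTE_RM5-1047, a Harbinger entry, had 1965 and 1727 RPM after Mael knockdown, against 4199 and 3869.6 RPM after Ago3 knockdown and 3777 and 3916 RPM in control cells and showed the same order (log2 difference -1.13 ± 0.08, adjusted p = 1.85e-16). Sola2-1_BM was below control after both knockdowns and lower after Mael, averaging 1204 RPM after Mael knockdown, against 1646 RPM after Ago3 knockdown and 2318 RPM in control cells (log2 difference -0.45 ± 0.08, adjusted p = 2.83e-06; not called with trimmed-mean scaling).

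As deposited, 14 of 20 SINEs (70%) were lower after Mael than after Ago3 knockdown and 2 (10%) higher, with a median of -0.48. Over all entries 31.7% were lower and 20.7% higher, with a median of -0.34. With trimmed-mean scaling 7 SINEs were lower and 2 higher, beside 201 and 263 of all 1004 entries. SINEs together held close shares of the library, 0.448% after Mael and 0.432% after Ago3 knockdown. Bm1, the abundant SINE of the silkworm genome, had 79.0 and 86.3 RPM after Mael knockdown, against 118 and 119 RPM after Ago3 knockdown and 49.9 and 45.9 RPM in control cells. It was above control after both knockdowns and less so after Mael (log2 difference -0.52 ± 0.14, adjusted p = 0.00146). The Bm1-type entries Bm1-450bp (-0.53 ± 0.12) and Bm1modoki (-0.44 ± 0.10) had log2 differences of like size. With trimmed-mean scaling none of these 3 was called (0 higher and 0 lower). Neet had 258 and 243 RPM after Mael knockdown, against 388 and 398 RPM after Ago3 knockdown and 335 and 344 RPM in control cells (log2 difference -0.65 ± 0.09, adjusted p = 1.49e-07), and ChoBm1 averaged 459 RPM after Mael knockdown, against 669 RPM after Ago3 knockdown and 609 RPM in control cells (log2 difference -0.54 ± 0.10, adjusted p = 8.81e-06). BmSE had unequal replicates in both knockdowns, with 235 and 135 RPM after Mael knockdown, against 457 and 223 RPM after Ago3 knockdown and 61.0 and 66.3 RPM in control cells (log2 difference -0.84 ± 0.19, adjusted p = 0.000184), and its call was lost without Ago3 replicate 1 (log2 difference -0.33, adjusted p = 0.156). The SINEs called higher were Rinne, with 2426 and 2298 RPM after Mael knockdown, against 1281 and 1169 RPM after Ago3 knockdown and 2277 and 2348 RPM in control cells (log2 difference 0.95 ± 0.08, adjusted p = 4.04e-14), and Nagisa (log2 difference 1.00 ± 0.18, adjusted p = 8.34e-06).

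In the small classes, of 7 entries of DIRS, retrotransposons that integrate by a recombinase, BmTE_RM1-288 (348 RPM after Mael knockdown, against 86.8 RPM after Ago3 knockdown and 331 RPM in control cells; log2 difference 1.99 ± 0.10, adjusted p = 6.64e-20), BmTE_RM1-274 (log2 difference 1.82 ± 0.10, adjusted p = 5.93e-19) and BmTE_RM1-419 (log2 difference 1.29 ± 0.14, adjusted p = 2.45e-10) were higher after Mael knockdown, and all 3 were below control after Ago3 knockdown. BmTE_RM6-1297, at 1.98 to 7.35 RPM in the 4 knockdown libraries, was lower (log2 difference -0.99 ± 0.40, adjusted p = 0.0345), a call lost under several settings, trimmed-mean scaling among them. W-Sakura, listed as a marker fragment of the female-specific W chromosome, gave the largest difference of all named elements, with 1183 and 1224 RPM after Mael knockdown, against 62.8 and 61.5 RPM after Ago3 knockdown and 181 and 197 RPM in control cells. It was 19.1-fold higher after Mael than after Ago3 knockdown (log2 difference 4.25 ± 0.10, adjusted p = 1.68e-31), above control after the one (log2 difference from control 2.67 ± 0.10, adjusted p = 2.68e-24) and below it after the other (log2 difference from control -1.59 ± 0.10, adjusted p = 3.66e-17). W-Mikan, another such fragment, was lower (log2 difference -0.63 ± 0.23, adjusted p = 0.0218; not called with trimmed-mean scaling or without replicate 2 of either knockdown), and the other 2 tested were not called.

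**Figure D5:**
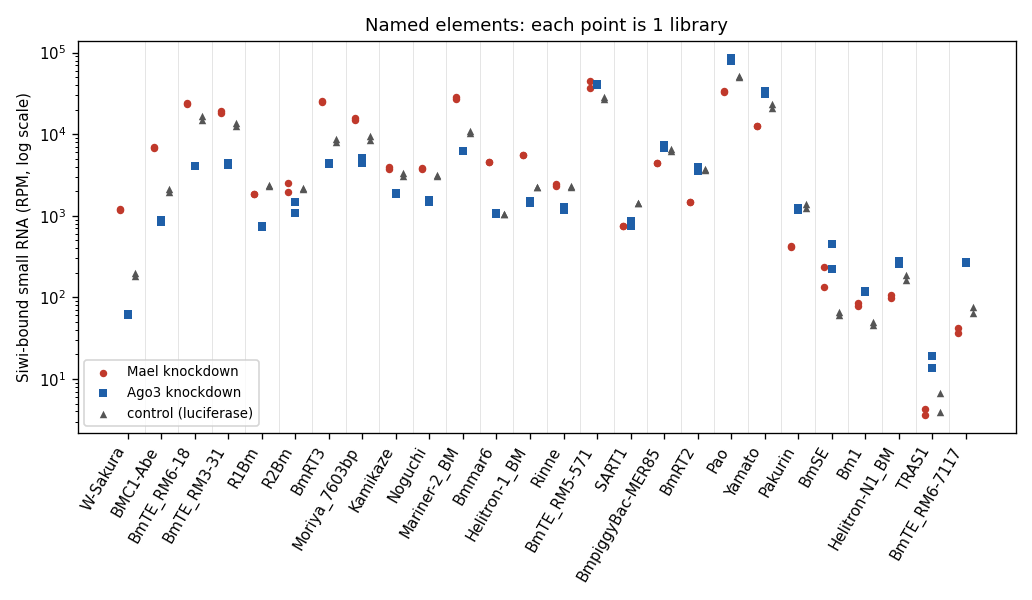
Siwi-bound small RNA (vertical axis, RPM, log scale) of 26 entries named in the text (horizontal axis) after Mael knockdown, after Ago3 knockdown and in control cells, each point being 1 library. W-Sakura at the left has 1183 and 1224 RPM after Mael knockdown and 62.8 and 61.5 RPM after Ago3 knockdown, the knockdowns meet at BmTE_RM5-571 and SART1, and Pao, Yamato and most entries to their right are lower after Mael knockdown.

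The unclassified entries held other large differences. BmTE_RM6-6914 had 5537 and 6201 RPM after Mael knockdown, against 379 and 425 RPM after Ago3 knockdown and 5132 and 5333 RPM in control cells. Its Mael and control libraries were close (log2 difference from control 0.16 ± 0.08, adjusted p = 0.0697) while Ago3 knockdown left it further below control than any other entry named here (log2 difference from control -3.70 ± 0.08, adjusted p = 2.22e-33; Mael over Ago3 knockdown 14.6-fold, log2 difference 3.86 ± 0.08, adjusted p = 8.53e-34). BmTE_RM1-267 had 151 and 157 RPM after Mael knockdown, against 7.27 and 12.9 RPM after Ago3 knockdown and 60.8 and 86.8 RPM in control cells (log2 difference 3.86 ± 0.19, adjusted p = 6.61e-21). The remaining entries among the 10 largest upward differences were BmTE_RM6-3153 of CR1-Zenon (3.32 ± 0.12), BmTE_RM5-242 of I-R1 (3.24 ± 0.10) and the unclassified BmTE_RM5-1510 (3.10 ± 0.14), all on the log2 scale. Among the abundant unclassified entries BmTE_RM6-3840 averaged 9632 RPM after Mael knockdown, against 2627 RPM after Ago3 knockdown and 4157 RPM in control cells (log2 difference 1.87 ± 0.07, adjusted p = 7.2e-25), BmTE_RM1-27 averaged 6599.6 RPM after Mael knockdown, against 1262 RPM after Ago3 knockdown and 4149 RPM in control cells (log2 difference 2.39 ± 0.07, adjusted p = 2.18e-27), and BmTE_RM1-573 was higher as well (log2 difference 1.46 ± 0.07, adjusted p = 8.95e-21).

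The largest downward differences were in BmTE entries of low to middling level. BmTE_RM6-7117 had 41.7 and 36.4 RPM after Mael knockdown, against 267 and 268 RPM after Ago3 knockdown and 76.8 and 64.1 RPM in control cells, so that Ago3 knockdown was above control (log2 difference from control 1.92 ± 0.13, adjusted p = 9.09e-16) and Mael knockdown below it (log2 difference from control -0.83 ± 0.13, adjusted p = 1.1e-06). It was 6.72-fold lower after Mael than after Ago3 knockdown (log2 difference -2.75 ± 0.13, adjusted p = 4.48e-21). With trimmed-mean scaling its Mael level was not called lower than control. BmTE_RM6-1881, an RTE entry, had 6.28 and 3.26 RPM after Mael knockdown, against 29.9 and 43.2 RPM after Ago3 knockdown (log2 difference -2.73 ± 0.27, adjusted p = 3e-11). Next in size, BmTE_RM4-1524 (-2.46 ± 0.28), BmTE_RM1-269 (-2.36 ± 0.28), BmTE_RM6-8141 (-2.30 ± 0.33), BmTE_RM6-2793 (-2.28 ± 0.36), BmTE_RM5-91 (-2.13 ± 0.33), BmTE_RM6-5636 (-2.11 ± 0.37), BmTE_RM5-610 (-2.10 ± 0.41) and BmTE_RM3-440 (-2.06 ± 0.31) had 0.661 to 8.27 RPM in the Mael libraries, where counting error is large. BmTE_RM3-440 was below control after both knockdowns, with 2.31 and 1.63 RPM after Mael knockdown, against 12.6 and 10.1 RPM after Ago3 knockdown and 23.9 and 27.2 RPM in control cells. At high levels BmTE_RM6-2569 had 1088 and 1049 RPM after Mael knockdown, against 3535 and 3611 RPM after Ago3 knockdown and 2449.6 and 3117 RPM in control cells (log2 difference -1.74 ± 0.08, adjusted p = 2.4e-21).

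BmTE_RM5-571, an abundant unclassified entry, was not called different between the knockdowns as deposited. It had 45444 and 36383 RPM after Mael knockdown, against 40920.0 and 39648 RPM after Ago3 knockdown and 26923 and 28578 RPM in control cells. Both knockdowns were above control (log2 difference 0.55 ± 0.08 after Mael and 0.54 ± 0.08 after Ago3 knockdown), and between them the difference was 0.01 ± 0.08 (adjusted p = 0.894). It was called higher with trimmed-mean scaling (0.28, adjusted p = 0.0137) and lower when scaled to the transposon total (-0.42, adjusted p = 3.35e-06).

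RNA of the same entries was measured after Mael knockdown and in control cells, in libraries the choice of entries did not use. RNA after Ago3 knockdown was not analysed here. Of 490 entries tested in RNA (limma on log2(RPKM + 1)), 54 differed (11.0%), 41 higher (8.37%) and 13 lower (2.65%). Of the 453 entries tested in both tables, RNA was higher after Mael knockdown in 41 (9.05%) and lower in 12 (2.65%), 11.7% in all. It was higher in 7 of 127 entries (5.51%) with more small RNA after Mael than after Ago3 knockdown, and in 21 of 155 (13.5%) with less. Among entries under the rule for Ago3 it was higher in 6 of 114 (5.26%, median log2 difference -0.02). Among those under the rule for Mael it was higher in 20 of 95 (21.1%) and lower in 2, with a median of 0.20. Among all entries with small RNA below control after Mael knockdown, whatever their level after Ago3 knockdown, RNA was higher in 32 of 199 (16.1%) and lower in 5. With small RNA under trimmed-mean scaling the rule for Mael left 29 entries, of which 9 had higher RNA (31.0%). Without Mael replicate 2 the 20 became 9, without Mael replicate 1 13, and without control replicate 1 12, and the 54 calls became 18, 30 and 33 without the same libraries. No difference between these shares was tested.

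The RNA examples below were chosen after their values were seen. BmTE_RM1-413, an unclassified entry, had 1092 and 1162 RPM of small RNA after Mael knockdown, against 3273 and 3176 RPM after Ago3 knockdown and 1752 and 1443 RPM in control cells (log2 difference -1.52 ± 0.08, adjusted p = 1.11e-19). Its RNA stood at 97.8 and 102 RPKM after Mael knockdown, against 24.1 and 23.2 RPKM in control cells (log2 difference 2.04 ± 0.18, adjusted p = 8.03e-10). BmTE_RM1-43 had 444 and 410.3 RPM of small RNA after Mael knockdown, against 874 and 844 RPM after Ago3 knockdown and 826 and 791 RPM in control cells (log2 difference -1.01 ± 0.08, adjusted p = 1.25e-13). Its RNA stood at 444 and 369 RPKM after Mael knockdown, against 121 and 97.5 RPKM in control cells (log2 difference 1.89 ± 0.21, adjusted p = 3.31e-08). In both entries small RNA, as deposited, was lower and RNA higher after Mael knockdown than in control. With trimmed-mean scaling the small RNA of BmTE_RM1-413 was not called lower than in control.

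Neet, the SINE whose small RNA was lower after Mael knockdown, had 5.87 and 4.78 RPKM of RNA after Mael knockdown, against 1.52 and 1.60 RPKM in control cells (log2 difference 1.30 ± 0.22, adjusted p = 8.99e-05). Yamato had 189 and 216 RPKM after Mael knockdown, against 125 and 142 RPKM in control cells (log2 difference 0.60 ± 0.19, adjusted p = 0.0406), and ChoBm1 had a like RNA difference (0.59 ± 0.19, adjusted p = 0.0334). The calls for Yamato and ChoBm1 were lost without any 1 of the 4 Mael and control RNA libraries. BmRT3, Mariner-2_BM, BMC1-Abe, W-Sakura, Moriya_7603bp and Helitron-1_BM, which had far more small RNA after Mael than after Ago3 knockdown, had no called RNA difference after Mael knockdown. Others of that direction did: the RNA of BmTE_RM6-3840 was lower (log2 difference -0.98, adjusted p = 0.00762) and that of LTR-2_BM-I higher after Mael knockdown than in control (0.99, adjusted p = 0.000731). BmRT2, with less small RNA after Mael than after Ago3 knockdown, had 78.5 and 73.0 RPKM of RNA after Mael knockdown, against 102 and 197 RPKM in control cells (log2 difference -0.90, adjusted p = 0.0053). The call for BmRT2 was lost without control replicate 2 (log2 difference -0.43, adjusted p = 0.335) and without either Mael library, that for BmTE_RM6-3840 without any 1 of the 4 libraries, and that for LTR-2_BM-I without Mael replicate 1 (0.81, adjusted p = 0.0737).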

How the data were processed

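The small RNA table holds RPM and the RNA table RPKM, as deposited by the authors for 1716 transposon entries. The submitters' processing notes name STAR 2.7.9a, Bowtie 1.3.0, Trim Galore, cutadapt 3.1, bedtools and SAMtools. What each tool did, the genome build and how reads with several matches were counted is not given in the sources used here. Groups came from the sample titles. Values were tested as log2(value + 1) with limma 3.58.1 in R 4.3.3 (lmFit, eBayes with a trend), two-sided, with Benjamini-Hochberg adjustment over all entries of a contrast and a threshold of 0.05. All 6 libraries of a table shared 1 fit, the Siwi knockdown RNA libraries included. In this fit the spread of an entry is estimated partly from all entries together. The very small limma p-values rest on that pooling and not on an entry's own libraries alone. Folds are on the log2(value + 1) scale, which understates changes of low entries. The procedure was tested on simulated data. Errors are SDs over 2 libraries for levels and standard errors for log2 differences.

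Every RPM value was a whole number of reads within 0.001 (100% of values), so edgeR 4.0.16 (quasi-likelihood) was also run on those reads and called 512 entries, 201 higher and 311 lower. Of the limma calls it shared 200 higher and 303 lower. Replicates differed by more than counting noise and were kept apart. Named entries were drawn from the 10 largest calls in each direction above the first quartile of level with libraries apart, the 5 most abundant entries, the 3 most abundant calls per class and direction, members of short lists and called elements with names of their own. Not all of the last are named in the text. Members and lists were chosen with earlier results of these data known. Alternatives were other pseudocounts, filters, scalings, edgeR, a replicate block and leaving out each library.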

Additional observations from a re-analysis of the deposited data

How the results depend on the processing

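Entries lower after Mael than after Ago3 knockdown numbered 201 with trimmed-mean scaling, 195 with edgeR on trimmed-mean scaling and 544 when scaled to the transposon total, against 318 as deposited. Entries higher numbered 130 with the transposon total, against 208. The rule for Mael held for 74, 72 and 347 entries under the same alternatives, against 190, and the rule for Ago3 for 112 with the transposon total, against 185. Scaled so, BmTE_RM5-571 (-0.42), Kendo (-0.36) and Judo (-0.14) changed sign. No cause was tested. Without the 10 most abundant entries the difference in transposon share was 10.3 points. Leaving out 1 library gave 449 to 522 calls, 181 to 207 higher, 263 to 323 lower, 160 to 186 under the rule for Ago3, 158 to 188 under that for Mael, and a share difference of 12.3 to 13.2 points. A group left with 1 library was assumed to vary like the others. Calls made with all libraries and without each of the 4 compared numbered 165 higher and 206 lower. In RNA, leaving out 1 library gave 18 to 63 calls and 9 to 23 entries with higher RNA under the rule for Mael; no filter gave 19 and 8, and a mean of at least 10 RPKM 31 and 13. Of 90 named entries, 72 kept direction and call in every alternative run. Those 90 do not take in every called element with a name of its own. Among all such elements, 53 were higher and 69 lower as deposited, and 67 and 40 with trimmed-mean scaling.

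Deviations of same-numbered libraries correlated at 0.04 between Mael and Ago3, -0.05 between Mael and control and -0.01 between Ago3 and control over 1004 entries. For low entries such deviations are largely counting error, which can hide a shared deviation of other entries. A pairing of libraries by number is therefore not excluded. The fit with a replicate block called 528 entries (208 higher, 320 lower), and 62 in RNA. Among the 90 named entries it changed only SARTBm3 (adjusted p = 0.0486).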
